A study of Homo sapiens with 11 samples.

Results

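The genes of the synaptic vesicle and the synapse were followed in DMS153 and H209, a pair of established lines of small cell lung carcinoma, and in MRC5, an established line of lung fibroblasts labelled as normal. Members were chosen by gene symbol from a list of 45 genes, and all 45 were found among the 57815 genes of the RNA tables. They were split by what their proteins do into 13 genes of the release machinery, 17 of vesicle proteins, 9 of adhesion and scaffold proteins, and 6 of vesicle retrieval, axon growth and transport. There were 3 RNA-seq libraries from DMS153, 2 from H209 and 3 from MRC5, and a Hi-C library, which records contacts between parts of the genome, was made from each line. All lines were grown in the same medium, with no treatment between them, and each group is 1 cell line. A difference between groups is therefore a difference between lines, and the labels do not say whether the libraries of a line came from separate cultures, so p-values measure the spread between these libraries. The RNA libraries taken as DMS153 bear DM153 in their titles and DMS153 in their cell line field.

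At a synapse, vesicles loaded with transmitter are tied to the release site by large scaffold proteins, primed, and fused with the membrane by a SNARE complex of a vesicle protein (VAMP) and membrane proteins (syntaxin and SNAP25), with synaptotagmins as calcium sensors and complexins as clamps. Neuroendocrine cells use much of the same machinery for dense core granules that hold peptides and amines. Small cell lung carcinoma has neuroendocrine features, and synaptophysin (SYP) is among its diagnostic markers.

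The labelled cell types matched their defining markers. The neuroendocrine markers INSM1, NEUROD1 and CHGA summed to between 446 and 522 FPKM in DMS153, between 719 and 724 FPKM in H209 and at most 0.00456 FPKM in MRC5, where FPKM is the number of fragments scaled by the length of the gene and the mapped fragments of the library. The fibroblast markers COL1A1, COL1A2, DCN, VIM and THY1 summed to at most 8.58 FPKM in DMS153, 32.3 FPKM in H209, most of it THY1, and at least 7106 FPKM in MRC5. The nuclear marker of mature neurons, RBFOX3, averaged 0.664 FPKM in DMS153, 0.116 FPKM in H209 and 0.353 FPKM in MRC5. The other neuron markers NEFH, NEFM, TUBB3 and MAP2 brought the sum of that list to between 130.5 and 139.9 FPKM in DMS153, between 283 and 286 FPKM in H209 and between 40.7 and 46.4 FPKM in MRC5, with most of it from TUBB3 and MAP2. Of the glial markers GFAP, MBP and AQP4, MBP alone reached 1 FPKM in a line mean, in both carcinoma lines, and no blood cell marker (PTPRC, CD3E and CD14) did in any line. The files hold no counts. Depth estimated from the low values of each library ran from 0.946 to 1.66 times that of MRC5 replicate 1, and the deposited confidence interval of a member at 1 FPKM or more had a median width of 4.94% to 11.8% of the value to either side, by library.

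Most of the synapse genes were expressed in both carcinoma lines, and fewer of them in the fibroblasts. The line mean was at least 1 FPKM for 44 of the 45 genes in DMS153, 40 in H209 and 21 in MRC5. It was at least 10 FPKM for 25 genes in DMS153, 26 in H209 and 6 in MRC5. Of the 24 genes under 1 FPKM in MRC5, 7 belonged to the release machinery, 11 to the vesicle proteins, 2 to the adhesion and scaffold proteins and 4 to retrieval, axon growth and transport. MRC5 was not without the module, since VAMP2, SV2A, RAB3B, NLGN2, DLG4 and SHANK2 averaged 10 FPKM or more there. In hg19 the loci that the results turn on most are SNAP25 at chr20:10199478-10288066, SYT13 at chr11:45261852-45307870, SYN3 at chr22:32908539-33454358, NLGN2 at chr17:7308193-7323179, DLG4 at chr17:7093209-7123021 and KIF1A at chr2:241653181-241759725. These are bulk libraries, in which fewer expressing cells and less RNA per cell cannot be told apart.

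**Figure D1:**
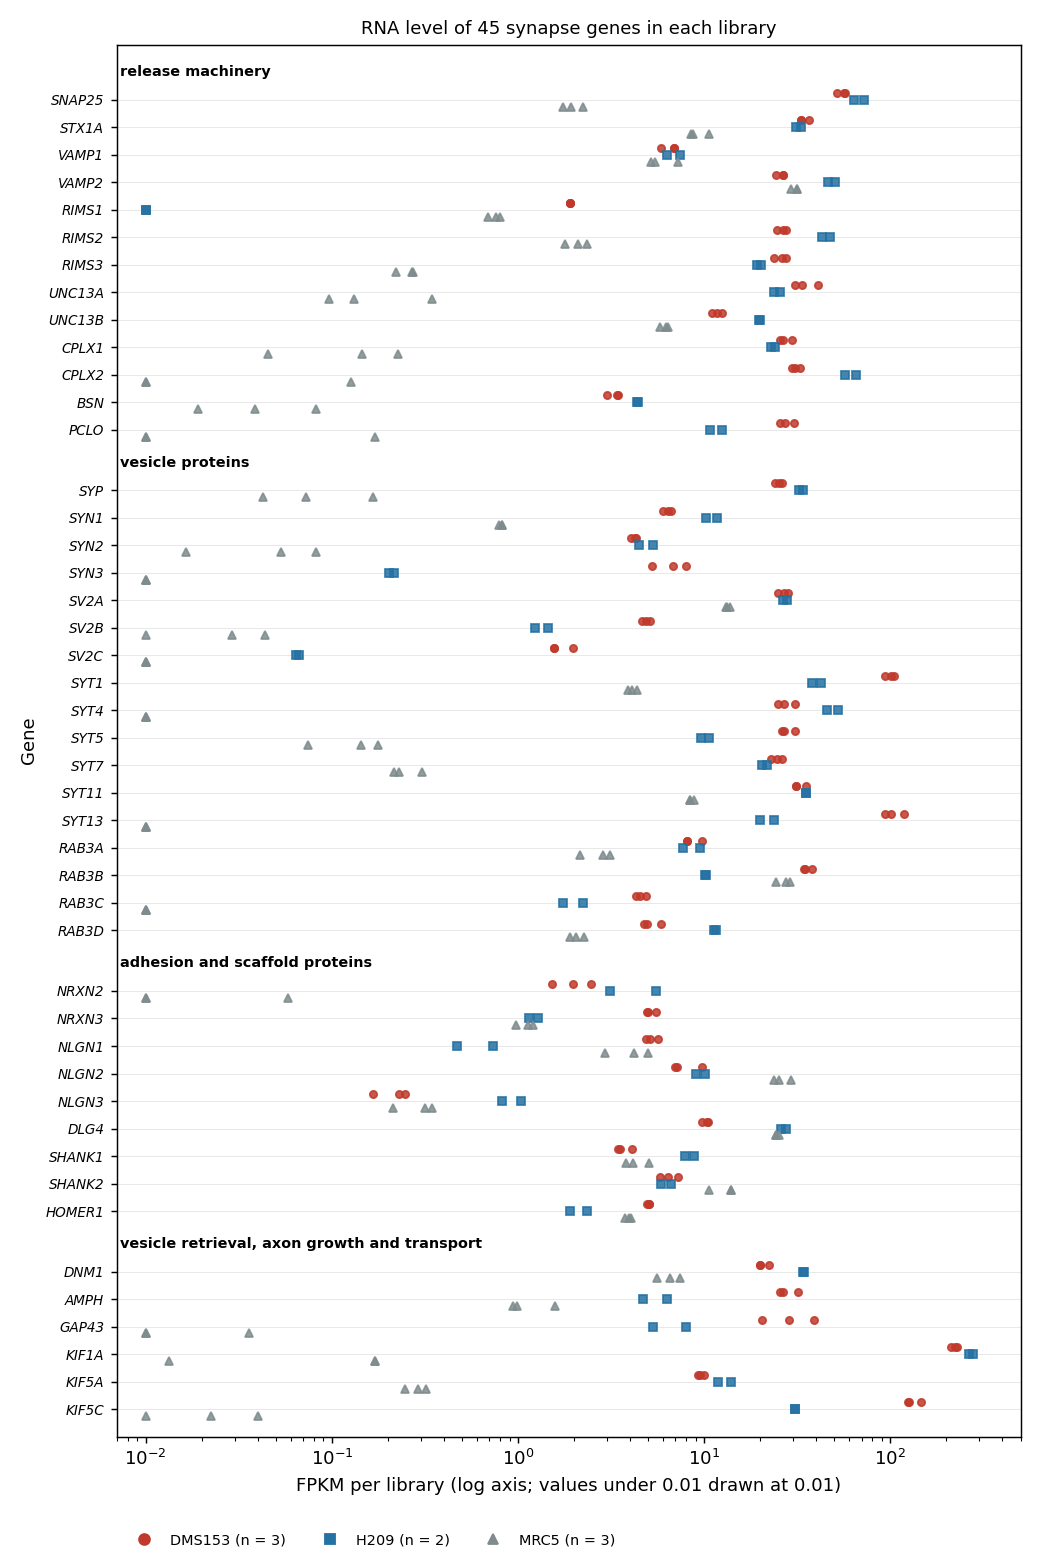
RNA level of each of the 45 genes in FPKM on a log axis, grouped by role, with 1 point per library (DMS153 n = 3, H209 n = 2, MRC5 n = 3). Most of the release, vesicle and transport genes have carcinoma points well to the right of the MRC5 points, whereas the points of VAMP1, SHANK1 and HOMER1 lie closer together.

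A gene was called by 2-sided limma tests on log2(FPKM + 1) at an adjusted p below 0.05 with a log2 fold change of at least 1 in size. Of the 45 members, 44 were tested. All but NLGN3 passed the filter of 1 FPKM in 2 libraries, and 24 of them passed it through carcinoma libraries alone. Where those 24 were called higher, the call was partly set by the filter. In DMS153 against MRC5, 32 of the 45 members were higher and 2 lower, where 34.0% of all tested genes were called higher and 16.4% lower. In H209 against MRC5, 30 were higher and 3 lower, with 33.0% of all tested genes higher and 14.9% lower. The median log2 fold change of the tested members was 2.17 in DMS153 and 2.13 in H209, beside 0.44 and 0.46 over all 19066 genes tested. These comparisons share the MRC5 libraries. Of the 20 members at 1 FPKM or more in at least 2 libraries of the carcinoma lines and in at least 2 of MRC5, 9 were higher and 2 lower in DMS153, and 9 higher and 3 lower in H209. Of the 12426 tested genes that met the same condition, 22.7% were higher and 18.5% lower in DMS153, and 25.6% higher and 16.3% lower in H209. The median log2 fold change of these 20 members was 0.88 in DMS153 and 0.89 in H209, beside 0.13 and 0.28 over those 12426 genes. The larger medians of the tested members thus rest on genes that were low in MRC5. Scaling each library by its median ratio to the others put the median gene at 0.00 in both comparisons and left 29 members higher and 3 lower in DMS153, and 27 higher and 6 lower in H209. Over all genes, that scaling gave 4710 higher and 4868 lower in DMS153 and 3953 higher and 4733 lower in H209, in place of 6489 and 3123 in DMS153 and 6300 and 2839 in H209.

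**Figure D2:**
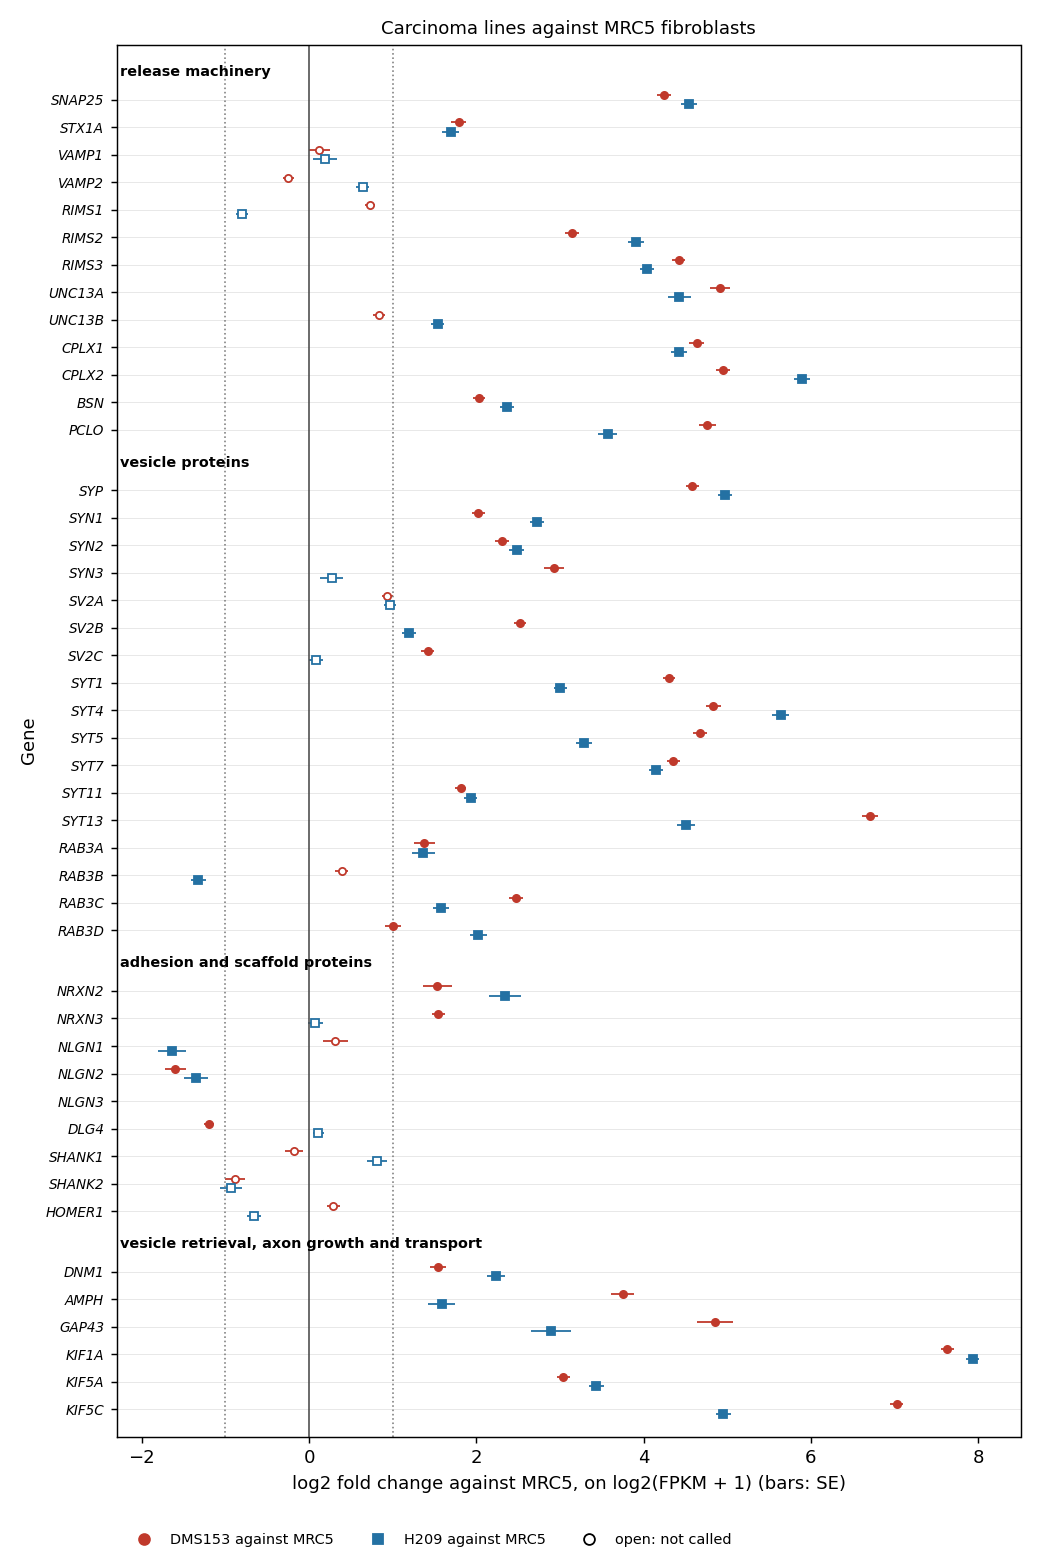
Fold change of each gene in DMS153 and in H209 against MRC5, on the log2(FPKM + 1) scale, with standard errors as bars, open symbols for genes not called and dotted lines at a log2 fold change of 1 in either direction. Release, vesicle and transport genes lie mostly to the right of the dotted line, and NLGN2 is to the left of it in both comparisons.

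A promoter element known to bear on such genes is RE1, the binding site of REST, a repressor that keeps neuronal genes silent in other cells. REST itself was at 0.0568, 0.0838 and 0.00538 FPKM in DMS153, 0.788 and 0.441 FPKM in H209 and 9.17, 7.11 and 7.79 FPKM in MRC5. It was far lower in both carcinoma lines than in MRC5 with no overlap, at a log2 fold change of -3.10 in DMS153 and -2.48 in H209. RE1 was searched for as CAGCACC, 2 free bases and GGACAG on both strands, with at most 2 mismatches over the 13 fixed bases, in RefSeq promoters of build GRCh38.p14 that span 250 bases before a gene's start and 50 after it. Of the 45 members, 35 had such a promoter, 54 promoters in all, and 2 of these (3.70%) held a match, beside 2.03% of all 35116 promoters. The exact motif was found in 1 member promoter, that of SYN1, and in 18 promoters of all genes (0.0513%). Both matching promoters are shown over their 250 upstream bases, read along the gene, with the match in capitals, because they belong to genes with different patterns across the 3 lines. The SYN1 stretch is chrX:47619858-47620107 on the minus strand, with an exact match at positions -231 to -217 from the start, and the SV2C stretch is chr5:76083133-76083382 on the plus strand, with 2 mismatches at positions -108 to -94.
SYN1: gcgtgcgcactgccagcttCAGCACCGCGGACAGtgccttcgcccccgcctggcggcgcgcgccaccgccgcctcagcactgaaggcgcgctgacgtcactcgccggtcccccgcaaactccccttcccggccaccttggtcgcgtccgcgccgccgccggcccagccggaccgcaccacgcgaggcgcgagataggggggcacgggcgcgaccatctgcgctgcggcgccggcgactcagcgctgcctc
SV2C: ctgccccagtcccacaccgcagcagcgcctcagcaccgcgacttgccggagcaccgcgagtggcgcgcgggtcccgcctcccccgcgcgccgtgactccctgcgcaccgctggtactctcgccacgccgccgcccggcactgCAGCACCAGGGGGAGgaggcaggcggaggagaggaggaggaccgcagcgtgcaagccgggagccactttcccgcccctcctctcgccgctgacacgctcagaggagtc
SYN1 was higher in both carcinoma lines than in MRC5, and SV2C was called in DMS153 alone, as given with the vesicle proteins. G and C made up 76.8% of the SYN1 stretch and 74.4% of the SV2C stretch. A match describes these letters and is not evidence of a bound site.

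In the release machinery, 9 of 13 genes were higher in DMS153 and 10 of 13 in H209 than in MRC5, and none was lower. Over all tested genes, 34.0% were higher and 16.4% lower in DMS153, and 33.0% higher and 14.9% lower in H209. Here the 7 genes with a mean under 1 FPKM in MRC5 passed the filter through carcinoma libraries alone. SNAP25, the membrane SNARE that gives the complex a pair of its helices, was at 56.4, 51.7 and 57.3 FPKM in DMS153, 64.2 and 71.97 FPKM in H209 and 2.23, 1.92 and 1.74 FPKM in MRC5. Both carcinoma lines stood far above MRC5 with no overlap, 28.1-fold in DMS153 and 34.7-fold in H209 by their means. The log2 fold change was 4.24 ± 0.08 (SE, adjusted p = 1.35e-10, limma) in DMS153 and 4.54 ± 0.09 (SE, adjusted p = 2.99e-10, limma) in H209. CPLX2, a complexin that binds the assembled SNARE complex, was at 30.9, 32.7 and 29.8 FPKM in DMS153, 65.4 and 56.8 FPKM in H209 and 0.00175, 0.127 and 0.000472 FPKM in MRC5. It was the highest complexin in both carcinoma lines and close to 0 in MRC5, with log2 fold changes of 4.95 ± 0.08 (SE, adjusted p = 5.74e-11, limma) in DMS153 and 5.90 ± 0.09 (SE, adjusted p = 7.63e-11, limma) in H209. Its relative CPLX1 averaged 27.2 ± 2.19 FPKM in DMS153 and 23.4 ± 0.742 FPKM in H209, against 0.139 ± 0.0903 FPKM in MRC5 (SD, n = 3, 2 and 3).

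VAMP2, the vesicle SNARE of the neuronal complex, did not follow SNAP25. It was at 24.3, 26.5 and 26.4 FPKM in DMS153, 46.5 and 50.5 FPKM in H209 and 29.3, 31.6 and 31.4 FPKM in MRC5, so the fibroblasts stood between the carcinoma lines with no overlap on either side. Its log2 fold change was -0.25 ± 0.07 (SE, adjusted p = 0.00584, limma) in DMS153 and 0.64 ± 0.07 (SE, adjusted p = 2.79e-05, limma) in H209, under the size for a call in both. The place of MRC5 between them depended on the scaling: the H209 change was -0.099 under median ratio scaling, and the DMS153 change was 0.047 under a fixed-sum scaling that leaves out small RNA and mitochondrial genes. VAMP1, its close relative, was at 5.84, 6.86 and 6.84 FPKM in DMS153, 6.33 and 7.43 FPKM in H209 and 5.43, 7.23 and 5.17 FPKM in MRC5, with overlapping ranges and an adjusted p of 0.367 in DMS153 and 0.225 in H209 by limma. The other membrane SNARE, STX1A, averaged 34.4 ± 1.88 FPKM in DMS153 and 32.1 ± 1.43 FPKM in H209, against 9.26 ± 1.20 FPKM in MRC5, a log2 fold change of 1.79 in DMS153 and 1.70 in H209, both called. Under median ratio scaling the H209 change of STX1A was 0.98 and no longer called.

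Of the priming factors and active zone scaffolds, UNC13A, BSN and PCLO rose in both lines. UNC13A, which primes vesicles by opening syntaxin, averaged 35.0 ± 5.41 FPKM in DMS153 and 24.5 ± 1.25 FPKM in H209, against 0.191 ± 0.135 FPKM in MRC5, and its log2 fold change was 4.91 in DMS153 and 4.43 in H209. Its relative UNC13B was at 11.0, 11.7 and 12.5 FPKM in DMS153, 19.9 and 19.6 FPKM in H209 and 6.39, 6.24 and 5.80 FPKM in MRC5. The fibroblasts were lowest and the lines did not overlap, but the change was called in H209 alone, at 1.54 ± 0.08 (SE, adjusted p = 9.14e-08, limma), and not in DMS153, at 0.83 ± 0.07 (SE, adjusted p = 2.66e-06, limma). The difference between the carcinoma lines in UNC13B, -0.71 on the log2 scale, was itself under the size for a call, and the H209 change was 0.85 under median ratio scaling. Under a fixed-sum scaling that leaves out small RNA and mitochondrial genes, the DMS153 change of UNC13B was 1.17 and was called. Of the large scaffolds (bassoon and piccolo), BSN rose by 2.03 in DMS153 and 2.36 in H209, and PCLO by 4.76 in DMS153 and 3.57 in H209 on the log2 scale. Both BSN calls were lost with a pseudocount of 5, at 0.71 in DMS153 and 0.89 in H209.

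The RIM genes, whose proteins link vesicles to calcium channels, differed in their proportions. RIMS2 averaged 26.2 ± 1.34 FPKM in DMS153 and 45.1 ± 2.98 FPKM in H209, against 2.08 ± 0.275 FPKM in MRC5. RIMS3 averaged 25.9 ± 1.94 FPKM in DMS153 and 19.7 ± 0.600 FPKM in H209, against 0.255 ± 0.0297 FPKM in MRC5. Both were called higher in each carcinoma line. RIMS1 was at 1.90, 1.89 and 1.89 FPKM in DMS153, 0.00578 and 0.00127 FPKM in H209 and 0.798, 0.761 and 0.686 FPKM in MRC5, so H209 was close to 0 and MRC5 lay between the carcinoma lines, with log2 fold changes of 0.73 in DMS153 and -0.80 in H209 that were under the size for a call. With a pseudocount of 0.1 the changes were 1.24 in DMS153 and -3.03 in H209 and both passed it. The H209 change also passed it under the 4 scalings tried, at -1.0003 to -1.30, and the DMS153 change was -0.13 under quantile normalization.

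Among the vesicle proteins, 15 of 17 genes were higher in DMS153, and 13 were higher and 1 lower in H209. Over all tested genes, 34.0% were higher and 16.4% lower in DMS153, and 33.0% higher and 14.9% lower in H209. Here the 11 genes with a mean under 1 FPKM in MRC5 passed the filter through carcinoma libraries alone. The synaptotagmins, a family that includes calcium sensors of fusion, held the largest rise of the role in each line. SYT13, a member of the family without the usual calcium binding, was at 100.3, 93.6 and 118 FPKM in DMS153, 23.6 and 20.0 FPKM in H209 and 0, 0 and 0 FPKM in MRC5. MRC5 was listed at 0 throughout, so no fold is given, and the DMS153 libraries were all above the H209 libraries. SYT4, another member with altered calcium binding, was at 26.9, 25.0 and 30.7 FPKM in DMS153, 45.4 and 52.3 FPKM in H209 and 0, 0 and 0 FPKM in MRC5, again listed at 0 in MRC5 and here highest in H209. SYT1, the fast calcium sensor of synaptic vesicles, was at 93.7, 101 and 105 FPKM in DMS153, 42.3 and 38.0 FPKM in H209 and 4.36, 3.92 and 4.10 FPKM in MRC5. The lines did not overlap, and its log2 fold change was 4.30 ± 0.07 (SE, adjusted p = 5.35e-11, limma) in DMS153 and 3.00 ± 0.08 (SE, adjusted p = 1.43e-09, limma) in H209. SYT5, SYT7 and SYT11 were also called higher in both lines, with log2 fold changes between 1.81 and 4.67 in DMS153 and between 1.93 and 4.15 in H209.

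SYP, the membrane protein used as a diagnostic marker, averaged 25.2 ± 1.15 FPKM in DMS153 and 33.2 ± 1.12 FPKM in H209, against 0.0940 ± 0.0645 FPKM in MRC5, a log2 fold change of 4.58 ± 0.07 (SE, adjusted p = 4.21e-11, limma) in DMS153 and 4.97 ± 0.08 (SE, adjusted p = 9.31e-11, limma) in H209. The synapsins, which tether vesicles to one another, differed by gene. SYN1 averaged 6.36 ± 0.339 FPKM in DMS153 and 11.0 ± 1.05 FPKM in H209, against 0.813 ± 0.0159 FPKM in MRC5, and SYN2 averaged 4.20 ± 0.134 FPKM in DMS153 and 4.88 ± 0.605 FPKM in H209, against 0.0507 ± 0.0332 FPKM in MRC5. Both were called higher in both carcinoma lines, and with a pseudocount of 5 the DMS153 call of SYN1 (0.97) and both calls of SYN2 (0.87 in DMS153 and 0.97 in H209) were lost. SYN3 was at 6.83, 8.01 and 5.23 FPKM in DMS153, 0.216 and 0.203 FPKM in H209 and 0.000810, 0.000949 and 0.00146 FPKM in MRC5. It was high in DMS153 alone, with a log2 fold change of 2.93 ± 0.12 (SE, adjusted p = 1.78e-08, limma) there and 0.27 ± 0.14 (SE, adjusted p = 0.0916, limma) in H209. With a pseudocount of 0.1 the H209 change of SYN3 was 1.61 and was called. TIMP3, a protease inhibitor gene whose locus overlaps that of SYN3, averaged 12.4 ± 3.60 FPKM in DMS153, 0.0682 ± 0.0244 FPKM in H209 and 117 ± 0.280 FPKM in MRC5. TIMP3 and SYN3 were thus both higher in DMS153 than in H209, while MRC5 had the highest TIMP3 and the lowest SYN3. TIMP1, whose locus overlaps that of SYN1, averaged 3.60 ± 0.863 FPKM in DMS153, 5.84 ± 0.139 FPKM in H209 and 848 ± 66.2 FPKM in MRC5, so MRC5 had the highest TIMP1 and the lowest SYN1. Whether reads were shared between these loci was not tested. Whether the counting used strand is not given in the sources used here.

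The SV2 glycoproteins, which sit in the vesicle membrane, also differed by gene. SV2A averaged 26.6 ± 1.72 FPKM in DMS153 and 27.2 ± 0.928 FPKM in H209, against 13.4 ± 0.355 FPKM in MRC5. Its log2 fold change was 0.94 ± 0.07 (SE, adjusted p = 7.55e-07, limma) in DMS153 and 0.97 ± 0.07 (SE, adjusted p = 1.58e-06, limma) in H209, just under the size for a call in both. SV2A was called in both under a fixed-sum scaling that leaves out small RNA and mitochondrial genes (1.26 in DMS153 and 1.22 in H209). In H209 it was also called with all genes in that sum (1.20) and with a pseudocount of 0.1 (1.01). SV2B was called higher in both lines, at 2.52 in DMS153 and 1.19 in H209. The H209 call of SV2B was lost under quantile normalization (0.55), and with a pseudocount of 5 both calls were lost (0.98 in DMS153 and 0.34 in H209). SV2C was at 1.57, 1.97 and 1.56 FPKM in DMS153, 0.0669 and 0.0639 FPKM in H209 and 0.00730, 0.00731 and 0.00738 FPKM in MRC5, and with a log2 fold change of 1.42 ± 0.08 (SE, adjusted p = 9.86e-08, limma) in DMS153 and 0.08 ± 0.08 (SE, adjusted p = 0.398, limma) in H209 it was called in DMS153 alone. That call was lost under quantile normalization (0.71) and with a pseudocount of 5 (0.42). RP11-466P24.7, whose locus overlaps SV2C, averaged 1.68 ± 0.146 FPKM in DMS153, 0.0331 ± 0.0165 FPKM in H209 and 0 FPKM in MRC5. It was thus also highest in DMS153. RP11-466P24.2 overlaps SV2C as well, at 10.1 ± 1.74 FPKM in DMS153, 5.79 ± 0.0271 FPKM in H209 and 13.9 ± 0.518 FPKM in MRC5. Whether reads were shared with SV2C was not tested.

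The 4 RAB3 genes encode small GTPases that mark vesicles before fusion, and each had its own pattern. RAB3A, the main form of neurons, was at 8.11, 8.04 and 9.69 FPKM in DMS153, 7.65 and 9.48 FPKM in H209 and 2.16, 3.13 and 2.85 FPKM in MRC5, higher in both carcinoma lines with no overlap, by 1.38 in DMS153 and 1.37 in H209 on the log2 scale. Both RAB3A calls were lost under median ratio scaling, at 0.87 in DMS153 and 0.75 in H209, under quantile normalization, at 0.77 in DMS153 and 0.73 in H209, and with a pseudocount of 5, at 0.82 in DMS153 and 0.81 in H209. RAB3B was at 34.7, 34.3 and 38.0 FPKM in DMS153, 10.2 and 10.1 FPKM in H209 and 28.9, 24.4 and 27.5 FPKM in MRC5. H209 was the low line, with a log2 fold change of -1.32 ± 0.09 (SE, adjusted p = 5.09e-07, limma), whereas DMS153, at 0.39 ± 0.08 (SE, adjusted p = 0.00103, limma), was not called. RAB3C was at 4.84, 4.52 and 4.29 FPKM in DMS153, 1.75 and 2.23 FPKM in H209 and 2.81e-05, 9.99e-05 and 3.75e-06 FPKM in MRC5, and it was called higher in both lines, at 2.47 in DMS153 and 1.58 in H209, but in neither with a pseudocount of 5 (0.93 in DMS153 and 0.48 in H209). RAB3D, a form known from secretory granules of exocrine cells, was at 4.74, 4.90 and 5.88 FPKM in DMS153, 11.6 and 11.3 FPKM in H209 and 2.05, 2.27 and 1.90 FPKM in MRC5. H209 was highest and MRC5 lowest, with a log2 fold change of 1.00 ± 0.09 (SE, adjusted p = 4.51e-06, limma) in DMS153 and 2.02 ± 0.10 (SE, adjusted p = 8.18e-08, limma) in H209. The DMS153 call of RAB3D sat on the limit. It was lost under quantile normalization (0.30), median ratio scaling (0.53) and TPM scaling (0.72) and with a pseudocount of 5 (0.52), and also without DMS153 replicate 3 (0.92), without MRC5 replicate 1 (0.9996) and without MRC5 replicate 3 (0.96).

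As shares of the summed RAB3 level within a library, which do not depend on how libraries are scaled, RAB3B made up 66.0 ± 0.340% in DMS153, 31.6 ± 1.47% in H209 and 84.8 ± 2.75% in MRC5. RAB3D made up 9.56 ± 0.574% in DMS153, 35.7 ± 2.21% in H209 and 6.56 ± 0.930% in MRC5 (SD, n = 3, 2 and 3). CTC-510F12.6, whose locus overlaps RAB3D, averaged 4.22 ± 0.156 FPKM in DMS153, 10.9 ± 0.665 FPKM in H209 and 2.40 ± 0.432 FPKM in MRC5. Both loci were thus highest in H209 and lowest in MRC5. TMEM205 and CCDC159 overlap RAB3D as well, and whether reads were shared was not tested. The families shown were picked after their values were seen. SYN1 made up 37.0 ± 3.61% of the synapsins in DMS153, where SYN3 held 38.5 ± 5.64%, and it was the main synapsin of H209, at 68.4 ± 4.67%, and of MRC5, at 94.1 ± 3.62% of a low sum, where TIMP1 was far higher. Among RIM genes, RIMS3 made up 48.0 ± 0.700% in DMS153, 30.4 ± 2.05% in H209 and 8.33 ± 1.32% in MRC5.

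**Figure D3:**
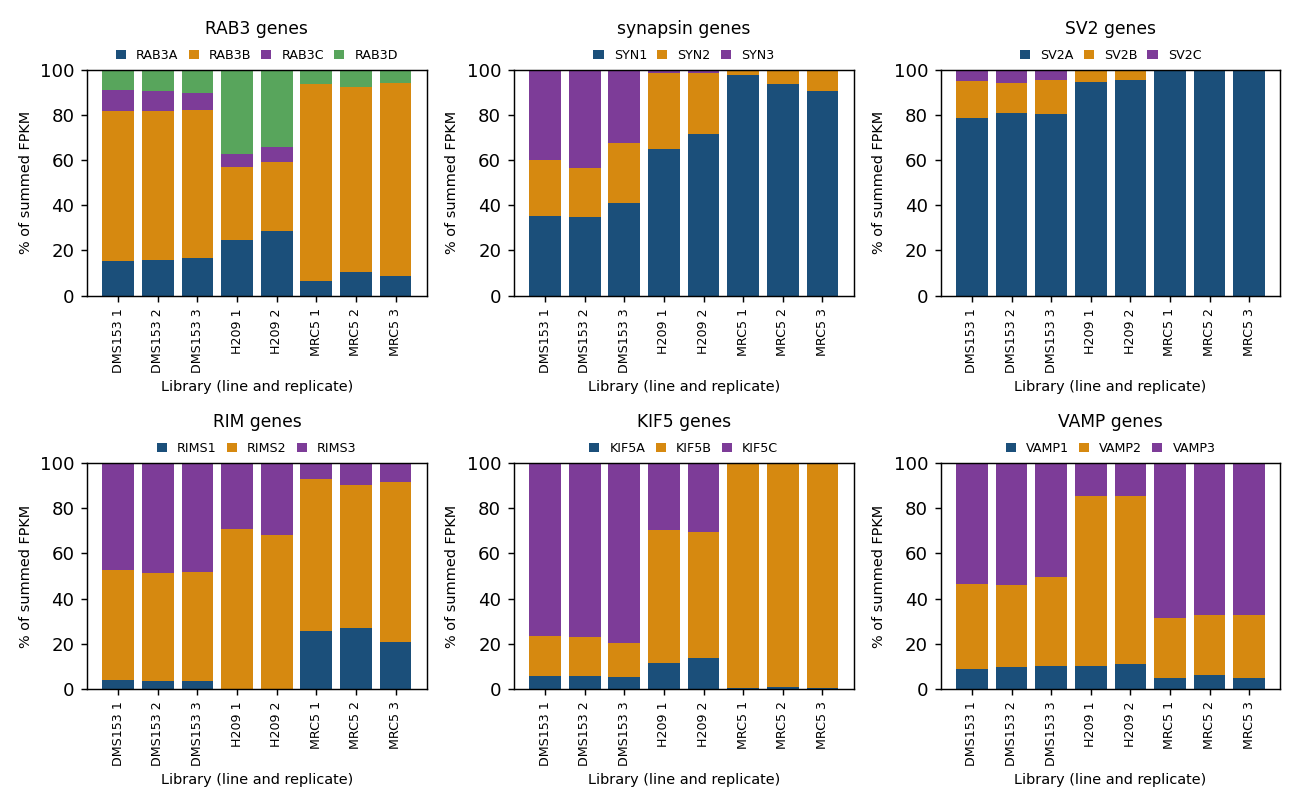
Share of each gene, in percent of the summed FPKM of its family, in every library, for the RAB3, synapsin, SV2, RIM, KIF5 and VAMP families. The H209 libraries have the largest RAB3D and VAMP2 shares, the DMS153 libraries the largest SYN3 and KIF5C shares, and the MRC5 libraries are dominated by RAB3B, SYN1, SV2A and KIF5B.

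The adhesion and scaffold proteins were the role in which rises and falls were mixed. NRXN2 was the only tested gene among them that passed the filter through carcinoma libraries alone. The filter thus bore less on this role than on the others, and their counts are not directly comparable. Of 9 genes, 8 were tested, with 2 higher and 2 lower in DMS153 and 1 higher and 2 lower in H209. Among all tested genes, 34.0% were higher and 16.4% lower in DMS153, and 33.0% higher and 14.9% lower in H209. The median log2 fold change of the 8 was 0.05 in DMS153 and -0.29 in H209, beside 0.44 and 0.46 over all tested genes. NLGN2, the neuroligin of inhibitory synapses, was at 6.97, 7.15 and 9.78 FPKM in DMS153, 9.02 and 10.1 FPKM in H209 and 29.1, 23.7 and 25.1 FPKM in MRC5. All carcinoma libraries lay below all fibroblast libraries, with a log2 fold change of -1.60 ± 0.13 (SE, adjusted p = 1.86e-06, limma) in DMS153 and -1.35 ± 0.14 (SE, adjusted p = 1.66e-05, limma) in H209. DLG4, which encodes PSD-95, the main scaffold behind glutamate receptors, was at 10.4, 9.69 and 10.5 FPKM in DMS153, 25.7 and 27.5 FPKM in H209 and 24.4, 24.2 and 25.1 FPKM in MRC5. DMS153 was the low line, at -1.19 ± 0.06 (SE, adjusted p = 7.72e-08, limma), and H209 was close to MRC5, at 0.11 ± 0.07 (SE, adjusted p = 0.159, limma). The DMS153 call of DLG4 was lost with a pseudocount of 5 (-0.96) and under a fixed-sum scaling that leaves out small RNA and mitochondrial genes (-0.94). ACADVL, whose locus overlaps DLG4, averaged 99.96 ± 6.30 FPKM in DMS153 and 156 ± 8.42 FPKM in H209, against 208 ± 7.88 FPKM in MRC5, so that DMS153 was lowest in both genes.

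NLGN1, the neuroligin of excitatory synapses, was at 5.11, 5.64 and 4.84 FPKM in DMS153, 0.736 and 0.471 FPKM in H209 and 4.20, 2.94 and 5.01 FPKM in MRC5. H209 was low, at -1.64 ± 0.17 (SE, adjusted p = 1.22e-05, limma), and DMS153 overlapped MRC5, at 0.31 ± 0.15 (SE, adjusted p = 0.0753, limma). The DMS153 difference of NLGN1 was -0.21 under median ratio scaling, and its H209 call was lost with a pseudocount of 5 (-0.69). NLGN3 was under the filter, at 0.230, 0.247 and 0.166 FPKM in DMS153, 0.821 and 1.04 FPKM in H209 and 0.316, 0.345 and 0.212 FPKM in MRC5, and was not tested. The presynaptic partners of the neuroligins, the neurexins, were higher where they were called. NRXN2 averaged 1.98 ± 0.469 FPKM in DMS153 and 4.32 ± 1.70 FPKM in H209, against 0.0209 ± 0.0321 FPKM in MRC5, and was called higher in both, at 1.53 in DMS153 and 2.34 in H209. NRXN3 was at 4.98, 4.92 and 5.52 FPKM in DMS153, 1.29 and 1.15 FPKM in H209 and 1.14, 1.21 and 0.973 FPKM in MRC5. It was called higher in DMS153, at 1.54 ± 0.08 (SE, adjusted p = 8.08e-08, limma), and not in H209, at 0.08 ± 0.09 (SE, adjusted p = 0.459, limma), where its range overlapped that of MRC5. The DMS153 calls of both were lost under quantile normalization, with NRXN2 at 0.83 and NRXN3 at 0.80, and with a pseudocount of 5, with NRXN2 at 0.47 and NRXN3 at 0.73. The H209 call of NRXN2 was also lost with a pseudocount of 5, at 0.88.

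The scaffolds SHANK1, SHANK2 and HOMER1 were not called in either comparison with MRC5. SHANK2 was at 5.76, 6.42 and 7.19 FPKM in DMS153, 6.61 and 5.83 FPKM in H209 and 13.9, 10.6 and 14.0 FPKM in MRC5, with both carcinoma lines below MRC5 and no overlap, and its log2 fold change was -0.89 in DMS153 and -0.93 in H209, close to the limit. It passed the limit in both lines under median ratio scaling (-1.46 in DMS153 and -1.61 in H209) and without MRC5 replicate 2 (-1.01 in DMS153 and -1.05 in H209), and in H209 also without H209 replicate 1 (-1.01). SHANK1 averaged 3.68 ± 0.349 FPKM in DMS153, 8.33 ± 0.667 FPKM in H209 and 4.32 ± 0.634 FPKM in MRC5. Its H209 change of 0.81 was called under fixed-sum scaling, at 1.07 with all genes in the sum. It was called at 1.10 with small RNA and mitochondrial genes left out. HOMER1 averaged 5.01 ± 0.0665 FPKM in DMS153, 2.12 ± 0.330 FPKM in H209 and 3.91 ± 0.140 FPKM in MRC5.

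All 6 genes of vesicle retrieval, axon growth and transport were higher in both carcinoma lines, beside 34.0% of all tested genes in DMS153 and 33.0% in H209. AMPH, GAP43, KIF1A, KIF5A and KIF5C passed the filter through carcinoma libraries alone, so their calls were partly set by it. KIF1A, the kinesin that carries synaptic vesicle precursors and dense core granules along axons, was at 211, 222 and 227 FPKM in DMS153, 277 and 265 FPKM in H209 and 0.169, 0.171 and 0.0134 FPKM in MRC5. It was the highest of the 45 genes in both carcinoma lines and under 1 FPKM in every MRC5 library. Its log2 fold change was 7.63 ± 0.07 (SE, adjusted p = 2.21e-12, limma) in DMS153 and 7.93 ± 0.08 (SE, adjusted p = 1.35e-11, limma) in H209. With the pseudocount of 1 this was the largest of all members. In DMS153 that rank depends on the pseudocount, since by the means KIF5C stood 6237-fold above MRC5 and KIF1A 1863-fold. KIF5C, a heavy chain of the conventional kinesin found mainly in neurons, was at 125, 126 and 147 FPKM in DMS153, 30.7 and 30.6 FPKM in H209 and 0.0402, 0.00119 and 0.0223 FPKM in MRC5. DMS153 was highest and MRC5 close to 0, with a log2 fold change of 7.02 ± 0.08 (SE, adjusted p = 4.37e-12, limma) in DMS153 and 4.95 ± 0.08 (SE, adjusted p = 1.05e-10, limma) in H209. KIF5C made up 77.9 ± 1.74% of the 3 KIF5 genes in DMS153 and 29.9 ± 0.621% in H209, while KIF5B, the widely expressed form, made up 16.4 ± 1.55% in DMS153, 57.5 ± 2.33% in H209 and 99.3 ± 0.101% in MRC5.

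DNM1, the neuronal dynamin that pinches vesicles off the membrane, was at 19.9, 20.0 and 22.3 FPKM in DMS153, 34.3 and 33.8 FPKM in H209 and 6.54, 7.38 and 5.57 FPKM in MRC5. The lines did not overlap and H209 was highest, with a log2 fold change of 1.54 ± 0.10 (SE, adjusted p = 2.77e-07, limma) in DMS153 and 2.23 ± 0.11 (SE, adjusted p = 5.70e-08, limma) in H209. Under median ratio scaling the DMS153 change was 0.97 and no longer called. CIZ1, whose locus overlaps DNM1, averaged 82.4 ± 5.73 FPKM in DMS153, 103 ± 10.3 FPKM in H209 and 59.3 ± 4.48 FPKM in MRC5. DNM1 and CIZ1 were thus both highest in H209 and lowest in MRC5. MIR199B overlaps DNM1 too, at 27.9 ± 2.36 FPKM in DMS153 and 0 FPKM in H209 and MRC5. Whether reads were shared with DNM1 was not tested. AMPH (amphiphysin), which bends the membrane for dynamin, rose by 3.75 in DMS153 and 1.58 in H209, and GAP43, a growth cone protein, by 4.85 in DMS153 and 2.89 in H209. The H209 call of AMPH was lost under quantile normalization (0.84) and with a pseudocount of 5 (0.76). In proportion to its mean, GAP43 varied most of the 6 between the DMS153 libraries, at 28.4, 20.4 and 39.1 FPKM. KIF5A averaged 9.58 ± 0.327 FPKM in DMS153 and 12.9 ± 1.48 FPKM in H209, against 0.287 ± 0.0365 FPKM in MRC5.

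Ratios between a neuronal gene and its widely expressed relative, taken within a library, set the synaptic form against the general one without scaling. The pairs were picked after their values were seen. SNAP25 over SNAP23, the SNARE of most other cells, had a mean log2 ratio of 2.48 ± 0.10 in DMS153, 1.47 ± 0.11 in H209 and -5.34 ± 0.15 in MRC5. SNAP23 fell in both lines, to 9.90 ± 0.472 FPKM in DMS153 and 24.5 ± 0.0535 FPKM in H209, against 79.3 ± 3.01 FPKM in MRC5. STX1A over STX4 stood at 1.86 ± 0.08 in DMS153, 1.24 ± 0.04 in H209 and -1.53 ± 0.06 in MRC5. This pair depends on the relative taken, since STX3, also widely expressed, rose along with STX1A. STX3 averaged 30.9 ± 3.55 FPKM in DMS153 and 22.5 ± 1.16 FPKM in H209, against 5.91 ± 0.212 FPKM in MRC5. STX2 was called in neither line. AMPH over BIN1, its widely expressed relative, stood at 2.00 ± 0.06 in DMS153, -0.81 ± 0.04 in H209 and -4.45 ± 0.47 in MRC5.

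VAMP2 over VAMP3 separated the carcinoma lines. The ratio was -0.48 ± 0.10 in DMS153, 2.36 ± 0.0023 in H209 and -1.33 ± 0.05 in MRC5, so VAMP3 was the larger of the pair in DMS153 and MRC5, and VAMP2 in H209. VAMP3, the general vesicle SNARE, averaged 35.8 ± 2.61 FPKM in DMS153 and 9.42 ± 0.536 FPKM in H209, against 77.3 ± 2.96 FPKM in MRC5, and was called lower in both carcinoma lines. DNM1 over DNM2 was below 0 in all libraries, with means of -1.12 ± 0.11 in DMS153, -0.61 ± 0.02 in H209 and -2.60 ± 0.22 in MRC5, so the widely expressed dynamin was the larger one in every line.

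**Figure D4:**
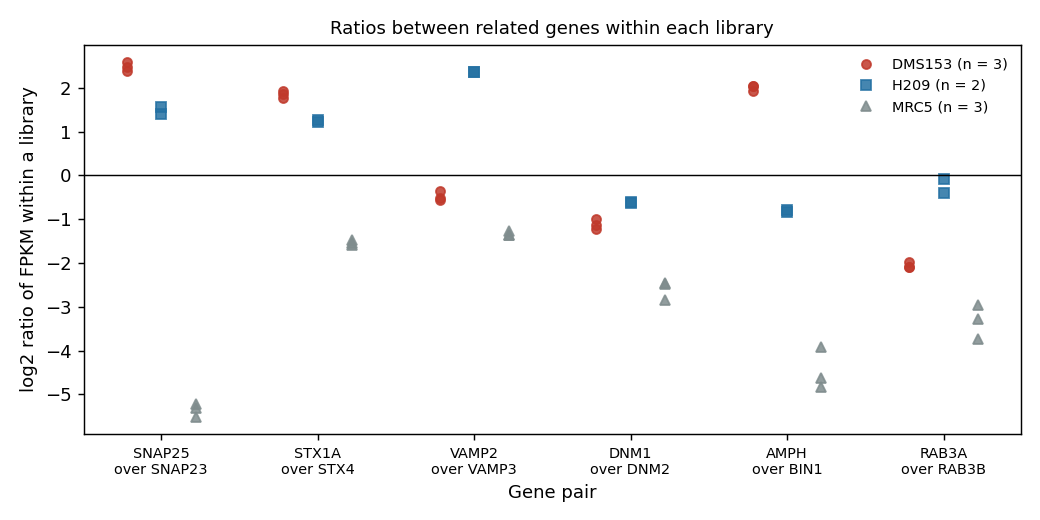
log2 ratio of the FPKM of a gene over that of a relative within each library, for 6 pairs, with 1 point per library and a line at equal levels. The MRC5 points lie lowest in every pair, the H209 points lie above the DMS153 points for VAMP2 over VAMP3, DNM1 over DNM2 and RAB3A over RAB3B, and the DMS153 points lie above the H209 points for the other 3 pairs.

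Between the carcinoma lines, 14 of the 45 members were higher in DMS153 and 2 lower, where 13.8% of all tested genes were called higher and 13.4% lower. By role, the higher genes were 2 of the release machinery, 7 vesicle proteins, 2 adhesion and scaffold proteins and 3 of retrieval, axon growth and transport. The median log2 fold change of the members was 0.03, beside -0.04 over all genes. This split depended on the scaling. With each library brought to a fixed sum (TPM), 10 members were higher and 13 lower, and 1782 of all tested genes were higher and 6319 lower, with the median gene at -0.60. In the DMS153 libraries, 39.4% to 43.7% of the summed FPKM lay in microRNA loci, against at most 0.0192% in any other library, and with small RNA and mitochondrial genes left out of the sum, 16 members were higher and 3 lower.

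SYN3 was the member with the largest difference, 2.65 ± 0.14 (SE, adjusted p = 2.84e-07, limma), followed by SYT13 at 2.2 ± 0.11 (SE, adjusted p = 2.35e-07, limma) and AMPH at 2.16 ± 0.16 (SE, adjusted p = 2.71e-06, limma). AMPH was at 26.5, 31.9 and 25.6 FPKM in DMS153, 4.71 and 6.29 FPKM in H209 and 1.58, 0.988 and 0.944 FPKM in MRC5, so DMS153 stood 5.09-fold above H209 by the means. KIF5C, GAP43 and NLGN1 followed, at 2.07, 1.96 and 1.95. RAB3B was higher in DMS153 by 1.72, RIMS1 by 1.53, NRXN3 by 1.47 and PCLO by 1.19. SYT1, SYT5, SV2B and SV2C were higher in DMS153 by between 1.29 and 1.38 on the log2 scale. Under TPM scaling the calls of PCLO (0.59), SYT1 (0.66), SYT5 (0.78) and SV2B (0.96) were lost. With a pseudocount of 5, those of NLGN1 (0.86), RIMS1 (0.46), NRXN3 (0.71), PCLO (0.98), SV2B (0.64) and SV2C (0.40) were lost. SV2C also lost its call under quantile normalization (0.95). Lower in DMS153 were DLG4, at -1.30 ± 0.07 (SE, adjusted p = 3.26e-07, limma), and RAB3D, at -1.02 ± 0.10 (SE, adjusted p = 1.88e-05, limma). The RAB3D difference was no longer called without DMS153 replicate 1 (-0.97), without DMS153 replicate 2 (-0.99), under median ratio scaling (-0.89) or with a pseudocount of 5 (-0.70). SHANK1, at -0.996, CPLX2, at -0.95, HOMER1, at 0.95, RAB3C, at 0.90, and VAMP2, at -0.89, were just inside the limit.

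**Figure D5:**
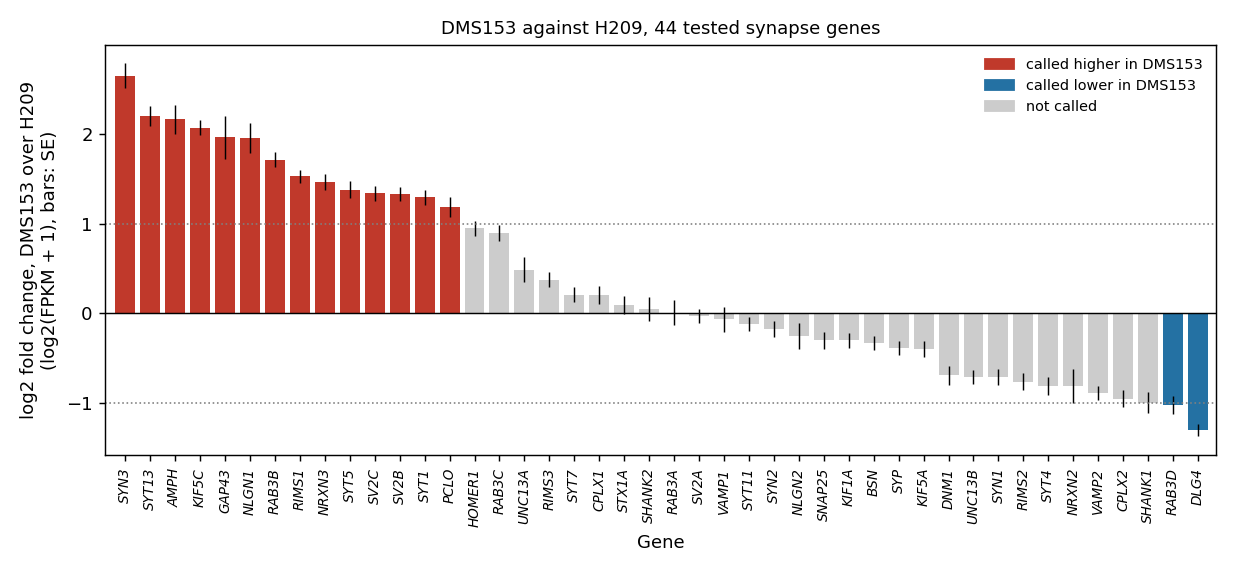
log2 fold change of DMS153 over H209 for the 44 tested genes in order of size, with standard errors as bars and colours for the 14 genes called higher and the 2 called lower in DMS153. SYN3, SYT13 and AMPH stand at one end and DLG4 and RAB3D at the other.

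Another 103 synapse genes and relatives, listed apart from the 45, gave the wider pathway, and 83 of them were tested. Of these 83, 43 were higher and 10 lower in DMS153, and 42 higher and 6 lower in H209, than in MRC5, beside 34.0% of all tested genes higher and 16.4% lower in DMS153, and 33.0% higher and 14.9% lower in H209. Of the 83, 37 passed the filter through carcinoma libraries alone. Of the 45 at 1 FPKM or more in at least 2 libraries of the carcinoma lines and in at least 2 of MRC5, 33.3% were higher and 22.2% lower in DMS153, and 28.9% higher and 13.3% lower in H209. Among the 12426 tested genes that met the same condition, 22.7% were higher and 18.5% lower in DMS153. In H209, 25.6% of them were higher and 16.3% lower. Further release genes were higher for 17 of 25 tested in DMS153 and 18 of 25 in H209, with none lower. The largest rise was that of RIMBP2, which binds RIM proteins to calcium channels, at 79.0 ± 4.01 FPKM in DMS153 and 32.5 ± 1.73 FPKM in H209, against 0.000183, 7.68e-05 and 0.000171 FPKM in MRC5. CADPS, which primes dense core granules, averaged 68.1 ± 6.82 FPKM in DMS153 and 24.0 ± 2.18 FPKM in H209, against 0.00962 ± 0.00813 FPKM in MRC5. CACNA1A, the pore of a presynaptic calcium channel, averaged 296 ± 9.84 FPKM in DMS153 and 157 ± 9.46 FPKM in H209, against 8.50 ± 0.494 FPKM in MRC5. Between the carcinoma lines, 4 of these 25 genes were higher and 5 lower in DMS153, where 13.8% of all tested genes were higher and 13.4% lower, among the lower ones CPLX3 (-2.38), DOC2B (-2.29) and RIMS4 (-2.23).

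Further vesicle proteins and transporters were higher for 9 and lower for 2 of 16 tested in DMS153, and higher for 8 and lower for 1 in H209. Among all tested genes, 34.0% were higher and 16.4% lower in DMS153, and 33.0% higher and 14.9% lower in H209. SH3GL2 (endophilin), AP3B2 and SNAP91, which serve vesicle formation and retrieval, had the largest rises in DMS153, at 4.99, 4.26 and 3.33, and rose by 4.74, 5.78 and 5.23 in H209. The carcinoma lines differed in transporters: SLC18A1, the vesicular monoamine transporter of endocrine cells, averaged 8.24 ± 0.998 FPKM in DMS153 and 0.0746 ± 0.00410 FPKM in H209, at a log2 fold change of 3.10. SLC17A7, a vesicular glutamate transporter, averaged 0.384 ± 0.0870 FPKM in DMS153 and 4.93 ± 0.641 FPKM in H209, at -2.10. SYPL1, a widely expressed relative of SYP, fell in both lines, with a log2 fold change of -1.32 in DMS153 and -2.45 in H209. SYNGR1 (synaptogyrin 1), a vesicle protein, fell further in DMS153, at -1.80, and was not called in H209, at -0.60. It averaged 6.16 ± 0.266 FPKM in DMS153 and 15.5 ± 0.647 FPKM in H209, against 24.1 ± 3.38 FPKM in MRC5.

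Further adhesion and scaffold genes were mostly higher where called, with 12 of 21 tested higher and 1 lower in DMS153 and 12 higher and none lower in H209. For this list and the relatives below, the shares over all tested genes were 34.0% higher and 16.4% lower in DMS153. In H209 they were 33.0% higher and 14.9% lower. CNTNAP2, a relative of the neurexins, averaged 103 ± 3.96 FPKM in DMS153 and 55.3 ± 3.35 FPKM in H209, against 0.0303 ± 0.0430 FPKM in MRC5. PTPRD, a receptor phosphatase of synapse formation, had a log2 fold change of 3.73 in DMS153 and 2.92 in H209. APBA1 was the gene called lower, at -1.49 in DMS153. Of the 21 widely expressed relatives, 5 were higher and 7 lower in DMS153 and 4 higher and 5 lower in H209. The largest falls in DMS153 were those of KIF1C (-4.59 in DMS153 and -2.58 in H209), HOMER3 (-3.65 in DMS153 and -1.05 in H209) and SNAP23 (-2.88 in DMS153 and -1.66 in H209), and the largest in H209 was that of VAMP3 (-1.09 in DMS153 and -2.91 in H209). Not every relative fell, since VAMP8, STXBP2 and STX3 rose in both carcinoma lines, by 2.90, 2.81 and 2.2 in DMS153 and 3.27, 3.46 and 1.76 in H209.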

How the data were processed

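The deposited RNA tables give FPKM per gene with a confidence interval, per the file headers, and FPKM was used as deposited. Tools named in the submitters' processing notes are TopHat2 2.1.0 and Cufflinks 2.2.0, with Bowtie2 and HOMER 4.8, on hg19. How RNA was selected, whether strand was kept and how deep the libraries are is not given in the sources used here. FPKM depends on all else a library holds, and reads of overlapping genes may be shared: 20 members overlapped another locus at 1 FPKM or more. limma 3.58.1 in R 4.3.3 fitted log2(FPKM + 1) for the 19066 genes at 1 FPKM or more in at least 2 libraries, with all 8 libraries in 1 fit (5 residual degrees of freedom) and eBayes with a trend. A call needed an adjusted p (Benjamini-Hochberg, over the 19066 genes) under 0.05 and a log2 fold change of 1 or more in size. The pseudocount of 1 understates changes of low genes. The fit was tested on simulated data. The deposited Hi-C domain tables carry a score per domain without a header, which was not used, and give 1 library per line. The members and lists were chosen with earlier results of these data known, and a few genes of the marker and comparison lists are not reported here. Values by library are given for the 3 highest members of each role, members called lower or in 1 carcinoma line alone, the largest differences between DMS153 and H209, and the RAB3 and VAMP genes, and others where groups overlapped or a call was near its limit, chosen after their values were seen. Alternatives covered the pseudocount, the filter, 4 scalings, the fit and each library left out.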

Additional observations from a re-analysis of the deposited data

Results flagged for a closer look

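For 16 members the change against MRC5 differed between the carcinoma lines. The difference itself was tested as DMS153 against H209 in the limma fit, since the MRC5 libraries cancel, and it passed an adjusted p below 0.05 with a log2 difference of at least 1 in size. It was positive, with the larger level in DMS153, for SYN3 (2.65), SYT13 (2.2), AMPH (2.16), KIF5C (2.07), GAP43 (1.96), NLGN1 (1.95), RAB3B (1.72), RIMS1 (1.53), NRXN3 (1.47), SYT5 (1.38), SV2C (1.34), SV2B (1.33), SYT1 (1.29) and PCLO (1.19). It was negative for DLG4 (-1.30) and RAB3D (-1.02). Several of these calls were lost under other settings, as given with the comparison of the carcinoma lines. RAB3B and NLGN1 were called lower than MRC5 in H209 and were above it, uncalled, in DMS153, while RIMS1 was above MRC5 in DMS153 and below it in H209 with neither called. The uncalled DMS153 directions depended on the scaling: RAB3B was at -0.22 under median ratio and -0.027 under TPM scaling, NLGN1 at -0.21, -0.30 and -0.042 under median ratio, quantile and TPM scaling, and RIMS1 at -0.13 under quantile normalization.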

How the results depend on the processing

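Over 20 alternatives, 8 of them leaving out a library, 2616 member fold changes were recomputed: 2511 kept their side of the threshold, 53 lost a call, 52 gained one and no call reversed. Of those 2511, 43 differences that were not called, in 19 members, changed sign. Of the 2 members lower in DMS153 than in MRC5, 1 remained by count with a pseudocount of 5 and 1 under fixed-sum scaling without small RNA and mitochondrial genes. The 3 members lower in H209 than in MRC5 became 5 with a pseudocount of 0.1, 6 under median ratio scaling and 6 under quantile normalization, the 6 including SHANK2, RIMS1 and HOMER1 under both scalings. Of DMS153 against H209, the 14 higher became 8 with a pseudocount of 5. The 2 lower became 4 with a pseudocount of 0.1, 1 with a pseudocount of 5, 1 under median ratio scaling and 13 under TPM scaling. The cause was not tested. Leaving out 1 library gave 31 to 32 higher and 2 to 3 lower in DMS153 against MRC5, 30 higher and 3 to 4 lower in H209 against MRC5, and 14 to 15 higher and 1 to 4 lower in DMS153 against H209 (1 without DMS153 replicate 2, 4 without H209 replicate 2). With 1 H209 library left, that library is assumed to vary like those of the other lines. Libraries of the same number correlated in their deviations at -0.0118 to 0.123, so the numbers were not taken to pair them, and not every library correlated best with its own number. A fit with the replicate number as a block gave 3 members lower in DMS153 than in H209, in place of 2, with SHANK1 at -1.02, and the same counts otherwise. Precision is limited by 2 or 3 libraries a line and by unstated depth, and low members rest on the pseudocount: at 5, 22 and 23 members were higher than in MRC5 in DMS153 and H209.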

Other observations

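DLG4, NLGN2 and VAMP2 lie close together on chromosome 17, in hg19 between 7093209 and 8066864, a stretch noticed after their values were seen. Of the 52 other tested genes there, 2 were called higher and 23 (44.2%) lower in DMS153 than in H209, beside 13.3% lower among 19011 genes elsewhere, and the median log2 fold change was -0.90 in the stretch and -0.04 elsewhere. In DMS153 against MRC5, 10 were higher and 17 (32.7%) lower, beside 16.3% lower elsewhere, with a median of -0.25 in the stretch and 0.44 elsewhere. In H209 against MRC5, 22 were higher and 9 lower, with a median of 0.62 in the stretch and 0.46 elsewhere.

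The Hi-C domain lists hold 5023 domains in DMS153, 3987 in H209 and 3701 in MRC5, with 1 library per line and no test. In these lists, 17 of the 45 member loci lay whole inside a domain in DMS153, 22 in H209 and 19 in MRC5. These shares were 37.8% in DMS153, 48.9% in H209 and 42.2% in MRC5, beside 39.7%, 40.8% and 40.1% of the other tested genes in the same order of lines. Counted only where a locus was not whole inside a domain, a domain end fell within 13 member loci in DMS153, 12 in H209 and 11 in MRC5. These were 28.9%, 26.7% and 24.4% of the members, beside 18.4%, 15.9% and 15.1% of other genes counted alike. The rest lay in no domain, 33.3%, 24.4% and 33.3% of the members, beside 42.0%, 43.3% and 44.8% of other genes. Member loci are longer, with a median of 87.3 kb against 22.8 kb for other tested genes. SYT13, CPLX1, HOMER1 and NLGN3 lay whole inside a domain in both carcinoma lines and in no domain in MRC5, and NLGN2, RAB3D and UNC13A lay inside one in MRC5 and in none in the carcinoma lines. Of the first 4 genes, SYT13 and CPLX1 were called higher than MRC5 in both carcinoma lines, HOMER1 in neither, and NLGN3 was not tested. Of the other 3, UNC13A and RAB3D were called higher in both lines and NLGN2 lower in both. How many genes outside the members differed between the lines in the same way was not counted.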
